A study of Mus musculus with 5 samples.

Results

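The genes described here are 10 genes of the type 1 helper (Th1) and cytotoxic programme, Tbx21, Eomes, Stat4, Il12rb1, Il12rb2, Gzmb, Gzma, Gzmk, Prf1 and Nkg7, chosen by name from 57186 annotated mouse gene IDs. Their RNA was measured in Tfr (follicular regulatory T) cells, which are CD4+ T cells with Foxp3 that enter B cell follicles and restrain antibody responses there. Tfr cells were sorted from mouse spleen as live CD4+Foxp3+CXCR5+PD-1+ICOS+ cells, 21 days after treatment with imiquimod, which stimulates the innate RNA receptor TLR7. The WT group (3 libraries) came from Foxp3-GFP reporter mice, and the Cebpa_KO group (2 libraries) from Foxp3-Cre Cebpa-flox/flox mice, in which Cre made in Foxp3-expressing cells deletes the transcription factor gene Cebpa. All mice had received imiquimod, their ages are not stated in the sources, and each library is a pool of cells from more than 2 mice, so that a p-value reflects variation among such pools. The groups also differ in their Foxp3 allele and in sex, with Ddx3y, a Y-linked gene, at 42.0 to 46.4 in WT and at 0 in both Cebpa_KO libraries, and these cannot be told apart from the loss of Cebpa.

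Naive CD4+ T cells become Th1 cells when the cytokine IL-12 binds a receptor made of the chains encoded by Il12rb1 and Il12rb2. The receptor activates the transcription factor STAT4, and T-bet, encoded by Tbx21, then turns on Ifng and other Th1 genes. Eomes encodes the T-box factor closest to T-bet, which is best known in CD8+ T cells and NK cells. Cytotoxic lymphocytes kill by releasing granules, in which perforin (Prf1) makes pores, granzymes (Gzmb, Gzma, Gzmk) are the proteases that enter the target cell, and Nkg7 is a granule membrane protein needed for efficient release. Regulatory T cells that express T-bet restrain Th1 responses in mice, and granzyme B and perforin have been described among their means of suppression.

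RefSeq promoters, running from 250 bases before to 50 bases after the start of the gene (build GRCm38.p6), were at hand for 9 of the 10 genes. Because the genes of the programme are classical targets of T-box and STAT factors, the windows were searched on both strands for a T-box core (TCACAC), a STAT motif (TTCNNNGAA), a RUNX motif (TGTGGT) and an AP-1 motif (TGACTCA). The T-box core was found in the windows of 4 genes (Gzmb, Gzmk, Il12rb2 and Nkg7) and in 14.5% of all 32851 promoter windows. The STAT motif was found in 3 (Gzmb, Il12rb2 and Nkg7) and in 8.30% of all windows, the RUNX motif in 4 (Gzma, Gzmb, Nkg7 and Prf1) and in 16.8%, and the AP-1 motif in Gzmb alone and in 5.20%. Shown are the promoter of Tbx21, the gene past the threshold in the comparison of the groups, and those of the 4 genes with a T-box core, written 5′ to 3′ on the strand of the gene with every match of the 4 motifs in capitals.
Tbx21, chr11:97115282-97115581, minus strand: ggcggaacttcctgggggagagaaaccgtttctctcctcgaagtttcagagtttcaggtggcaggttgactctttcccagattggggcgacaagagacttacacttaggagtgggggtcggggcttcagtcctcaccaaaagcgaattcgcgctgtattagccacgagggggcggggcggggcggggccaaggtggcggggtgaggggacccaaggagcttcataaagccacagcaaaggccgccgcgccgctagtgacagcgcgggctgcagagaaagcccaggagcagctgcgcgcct
Il12rb2, chr6:67376139-67376438, minus strand: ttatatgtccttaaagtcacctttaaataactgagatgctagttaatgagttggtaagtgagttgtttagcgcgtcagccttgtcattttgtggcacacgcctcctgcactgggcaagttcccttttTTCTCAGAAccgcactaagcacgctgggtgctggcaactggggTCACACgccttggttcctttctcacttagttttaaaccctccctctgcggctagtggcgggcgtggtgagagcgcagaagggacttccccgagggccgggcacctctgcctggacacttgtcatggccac
Gzmb, chr14:56262285-56262584, minus strand: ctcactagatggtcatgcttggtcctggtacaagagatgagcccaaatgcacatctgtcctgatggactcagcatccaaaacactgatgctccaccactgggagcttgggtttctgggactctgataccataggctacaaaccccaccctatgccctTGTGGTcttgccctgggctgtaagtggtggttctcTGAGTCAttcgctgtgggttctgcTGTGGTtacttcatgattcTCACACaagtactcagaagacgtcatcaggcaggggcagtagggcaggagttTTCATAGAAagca
Gzmk, chr13:113180916-113181215, minus strand: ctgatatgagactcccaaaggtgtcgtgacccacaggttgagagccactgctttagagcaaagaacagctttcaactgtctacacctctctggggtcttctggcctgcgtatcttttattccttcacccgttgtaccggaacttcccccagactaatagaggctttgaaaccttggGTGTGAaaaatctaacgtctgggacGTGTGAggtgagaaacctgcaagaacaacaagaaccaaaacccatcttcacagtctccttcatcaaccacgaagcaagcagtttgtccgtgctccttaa
Nkg7, chr7:43436888-43437187, plus strand: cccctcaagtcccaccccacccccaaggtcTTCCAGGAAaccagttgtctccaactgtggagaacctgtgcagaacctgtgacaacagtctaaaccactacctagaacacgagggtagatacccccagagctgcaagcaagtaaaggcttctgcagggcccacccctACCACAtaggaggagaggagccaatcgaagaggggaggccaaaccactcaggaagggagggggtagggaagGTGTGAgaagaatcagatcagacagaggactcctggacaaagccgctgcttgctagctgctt
Gzmb held all 4 motifs within this window, the T-box core starting 15 bases before the start of the gene and the AP-1 match 58 bases before it. In Nkg7 the T-box core began 12 bases before the start, and Gzmk held the core at 2 positions, 74 and 49 bases before it. The Tbx21 window held none of the 4 motifs. A match describes the sequence and does not show that a factor binds there. The RefSeq starts in this build were not compared with the starts of the mm39 gene models that were quantified.

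Values are TPM of annotated genes, a measure of transcript abundance corrected for gene length and library size, scaled between libraries and written as scaled TPM. Differences are Cebpa_KO minus WT on the log2(scaled TPM + 1) scale, tested with limma over 16254 genes with Benjamini-Hochberg adjustment at 0.05, and are given as log2 differences. Aligned depth was 6.76 to 7.08 gigabases per library, and between 15250 and 15691 genes reached a TPM of 1. Cebpa itself was at 12.8 to 17.7 in WT libraries, with Cebpa_KO libraries at 0.317 and 0.550. Of 7 genes of the sort and of T cell identity, 5 were called lower in Cebpa_KO and 0 higher, where 9.82% and 9.93% of all genes were. Foxp3, which defines regulatory T cells, was at 83.0 to 107.3 over the WT libraries and at 6.74 and 5.58 in those of Cebpa_KO. The follicular homing receptor Cxcr5 was at 252 to 298 against 181 and 141 (log2 difference -0.78, limma, adjusted p = 0.0206), and the costimulatory receptor Icos at 271 to 343 against 185 and 198 (log2 difference -0.71, limma, adjusted p = 0.0207). The T cell receptor and CD3 genes Trac and Cd3e fell by 0.48 and 0.43 on the log2 scale (limma, adjusted p = 0.0388 and 0.0410). Cd4 (at 471 or more) and Pdcd1 (at 633 or more) did not pass, although both lay lower in Cebpa_KO than in WT. The part of these differences in the results was not tested. WT replicate 3 stood apart from the other WT libraries: 12 stress genes summed to 1188, 1272 and 5540 in WT replicates 1, 2 and 3, and to 6338 and 6716 in Cebpa_KO. Of these 12, Hspd1 was called higher in Cebpa_KO, at 153, 147 and 179 against 367 and 343 (limma, adjusted p = 0.00682). Atf3 was under 1 in all WT libraries and at 8.27 and 7.499 in those of Cebpa_KO. It passed the filter through the Cebpa_KO libraries alone, so it is given without a test. Because WT replicate 3 stood apart, many results are also given without it or with it as the only WT library. Leaving it out raises the log2 difference of any gene that was high in it and lowers that of any gene low in it. Such calls are no independent support. With it as the only WT library, the spread comes from the 2 Cebpa_KO libraries alone. A p-value of that fit then holds no variation among WT pools.

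Tbx21 was the one gene of the 10 past the threshold, and it was higher in Cebpa_KO. Over all genes tested, 9.93% were called higher and 9.82% lower, and among the 10 genes the counts were 1 and 0 (limma; 0 were lower at an unadjusted p under 0.05 as well). The median log2 difference was 0.36 over the 10 genes and 0.01 over all 16254. For the 10 genes it was 0.44 without WT replicate 3 and -0.12 with that library as the only WT library. All 10 genes passed the filter, which asks for a TPM of 1 or more in 2 or more libraries, but Il12rb2 did so through the Cebpa_KO libraries alone, so its difference is given without a test. With WT replicate 3 left out, 4 of the 10 were higher (Tbx21, Gzmb, Gzmk and Nkg7) and 0 were lower. Of 15935 genes, 13.7% were then called higher and 11.5% lower. Gzmb, Gzmk and Nkg7 were high in WT replicate 3, so its omission alone raises their log2 differences. When WT replicate 3 stood alone for WT, the log2 difference of Tbx21 was 1.19. Those of Gzmb, Gzmk and Nkg7 were then -0.32, -1.25 and -0.59.

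**Figure D1:**
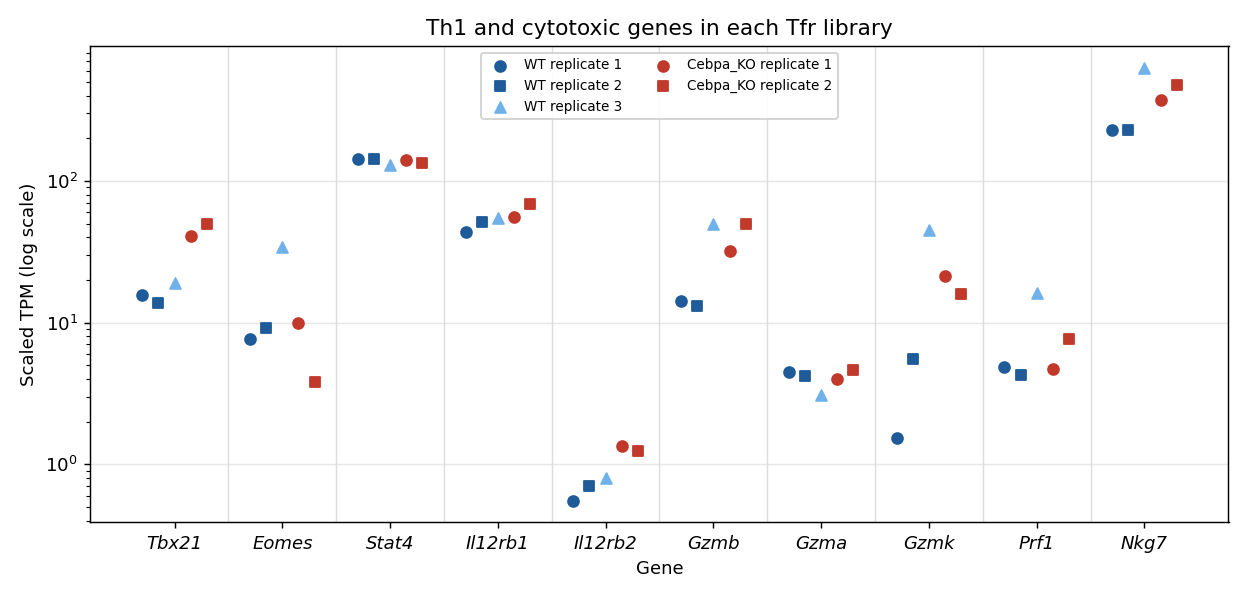
Scaled TPM (log scale) of each of the 10 genes, 1 point per library, for 3 WT libraries (blue; WT replicate 3 as light triangles) and 2 Cebpa_KO libraries (red). The red points of Tbx21 lie above all its blue points, while for Eomes, Gzmb, Gzmk, Prf1 and Nkg7 the light triangle is the highest point.

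**Figure D2:**
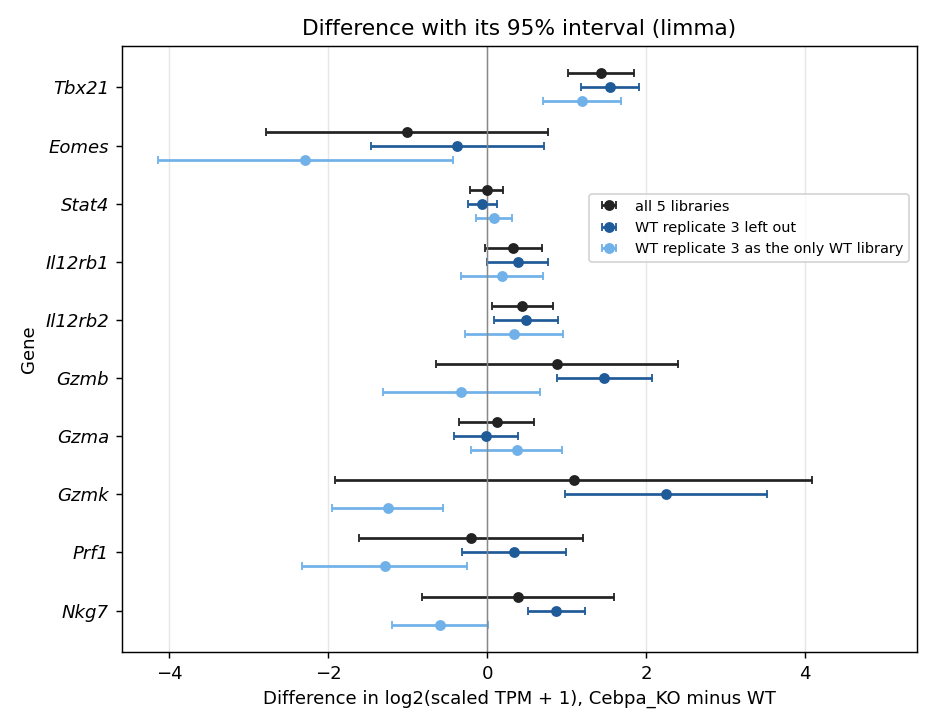
Log2 difference of each gene (Cebpa_KO minus WT, log2(scaled TPM + 1) scale) with its 95% interval from limma, using all 5 libraries (black), leaving out WT replicate 3 (dark blue) or using it as the only WT library (light blue). Tbx21 lies right of 0 in all 3 fits, and Gzmb, Gzmk, Prf1 and Nkg7 change sides between the dark and light blue points. Il12rb2 passed the filter through the Cebpa_KO libraries alone, so its intervals are not read as a test. The light blue intervals rest on the spread of the Cebpa_KO libraries alone.

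Among the transcription factors, Tbx21 (ENSMUSG00000001444, mm39 chromosome 11, 96988897 to 97006157, minus strand), which encodes the Th1 master regulator T-bet, was at 15.6, 13.8 and 19.0 in WT replicates 1, 2 and 3 and at 40.7 and 49.3 in Cebpa_KO replicates 1 and 2. The lowest Cebpa_KO library was above the highest WT library. The means were 16.1 ± 2.64 (SD, n = 3) and 45.0 ± 6.09 (SD, n = 2), a 2.79-fold rise, with a log2 difference of 1.43, a standard error of 0.17 and an adjusted p = 0.00923 (limma). A two-sided exact permutation test on Tbx21 gave p = 0.1, which is the lower limit with 10 ways to split 5 libraries. Over 16 alternative settings the log2 difference was 1.19 to 1.57 and the adjusted p 0.00369 to 0.0848. The call was lost when either Cebpa_KO library was left out, at adjusted p of 0.0710 without replicate 1 and 0.0848 without replicate 2, although the log2 differences were then 1.57 and 1.30.

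Eomes (ENSMUSG00000032446, chromosome 9, 118307280 to 118315200), which encodes the T-box factor eomesodermin, did not pass and had another pattern than Tbx21. Its level was 7.63, 9.13 and 34.1 in the WT libraries, against 9.88 and 3.80 in the Cebpa_KO libraries, so that the groups overlapped and WT replicate 3 was far above the rest. The log2 difference was -1.01 with a standard error of 0.71 and did not pass (limma, adjusted p = 0.345), and it was -0.38 without WT replicate 3 and -2.29 with it as the only WT library. The ratio of Tbx21 to Eomes within a library was 2.04, 1.51 and 0.556 in the WT libraries, against 4.12 and 13.0 in the Cebpa_KO libraries. Tbx21 was thus the more abundant of the pair, per length, in both Cebpa_KO libraries and in WT replicates 1 and 2, and Eomes in WT replicate 3.

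Stat4 (ENSMUSG00000062939, chromosome 1, 52026307 to 52146348), the signal transducer of the IL-12 receptor, was at 143, 142 and 129 in WT libraries, with Cebpa_KO libraries at 140 and 134. All 5 libraries lay close together and the groups overlapped. The log2 difference was -0.01, with a 95% interval of -0.22 to 0.20 (limma, adjusted p = 0.953). A second gene model on the same strand, Gm28177, overlaps Stat4. It was at 450, 465 and 474 in the WT libraries, against 600 and 662 in those of Cebpa_KO. In the GENCODE M21 transcripts 78.3% of the 50-base windows of Stat4 occurred in no other gene. The split of reads between Stat4 and Gm28177 is thus uncertain, and its part in the even values of Stat4 was not tested.

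The chains of the IL-12 receptor were present at very different levels. Il12rb1 (ENSMUSG00000000791, chromosome 8, 71261093 to 71274068), the chain that binds the subunit shared by IL-12 and IL-23, was at 43.5, 51.4 and 54.3 over the WT libraries, whereas Cebpa_KO libraries had 56.0 and 69.2. The groups did not overlap, but the gap between them was small, and the log2 difference of 0.32 (standard error 0.14) did not pass (limma, adjusted p = 0.163). Il12rb2 (ENSMUSG00000018341, chromosome 6, 67268302 to 67353172), the signalling chain that recruits STAT4, was the lowest of the 10 genes, at 0.553, 0.702 and 0.798 in the WT libraries, against 1.34 and 1.23 in those of Cebpa_KO. Both Cebpa_KO libraries were above all WT libraries, with a log2 difference of 0.44, and the log2(scaled TPM + 1) scale understates changes at such levels. The ratio of Il12rb1 to Il12rb2 was 78.7, 73.2 and 68.0 in the WT libraries, against 42.0 and 56.2 in the Cebpa_KO libraries. Serbp1, which encodes an mRNA-binding protein, overlaps Il12rb2 on the other strand and was at 222, 300, 349, 579 and 387 in the libraries in the same order. The strand setting is not known, so RNA of Serbp1 may count towards Il12rb2, and the part of this overlap in the values was not tested. In the loci assembled by the authors, the log2 difference of Il12rb2 was -0.01.

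The groups did not overlap in 3 of the 10 genes, Tbx21, Il12rb1 and Il12rb2, each higher in Cebpa_KO, and of these Il12rb2 passed the filter through that group alone. Over all tested genes, 28.7% lay wholly above WT in Cebpa_KO and 28% wholly below it, 56.7% together, so 3 higher genes among 10 is close to the background, and none of the 10 lay wholly below.

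Granzyme B and Nkg7 were high in WT replicate 3 as well as in both Cebpa_KO libraries. Gzmb (ENSMUSG00000015437, chromosome 14, 56496295 to 56499717), the granzyme that activates caspases in target cells, was at 14.3, 13.0 and 49.8 in WT libraries, with Cebpa_KO libraries at 31.9 and 49.5. WT replicate 3 lay at the level of the higher Cebpa_KO library. The log2 difference was 0.88 (standard error 0.61, limma, adjusted p = 0.339), and became 1.47 without WT replicate 3 (adjusted p = 0.0170) and -0.32 with it as the only WT library (adjusted p = 0.503). Nkg7 (ENSMUSG00000004612, chromosome 7, 43086497 to 43087673), the granule protein of killer cells, was the most abundant of the 10 genes in every library. It was at 229, 230 and 631 over the WT libraries, whereas Cebpa_KO libraries had 370 and 478, with both Cebpa_KO libraries between the WT extremes. Its log2 difference of 0.39 did not pass (limma, adjusted p = 0.594), and was 0.87 without WT replicate 3 (adjusted p = 0.0177) and -0.59 with it as the only WT library (adjusted p = 0.136).

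Perforin and granzyme K were highest in WT replicate 3. Prf1 (ENSMUSG00000037202, chromosome 10, 61133612 to 61140459), the pore former, was at 4.85, 4.25 and 16.1 in the WT libraries, against 4.66 and 7.69 in those of Cebpa_KO. The Cebpa_KO libraries overlapped WT replicates 1 and 2, and the log2 difference was -0.20 (standard error 0.56, limma, adjusted p = 0.818), or 0.34 without WT replicate 3 (adjusted p = 0.364) and -1.29 with it as the only WT library (adjusted p = 0.0971). Gzmk (ENSMUSG00000042385, chromosome 13, 113308142 to 113362442), a granzyme typical of memory-like CD8+ T cells, was at 1.54, 5.53 and 45.2 in WT libraries, with Cebpa_KO libraries at 21.4 and 15.8. Relative to the WT mean, its spread in WT was the widest of the 10 genes. The 95% interval of its log2 difference of 1.09 ran from -1.91 to 4.08 (limma, adjusted p = 0.543). The log2 difference was 2.25 without WT replicate 3 (adjusted p = 0.0339) and -1.25 with it as the only WT library (adjusted p = 0.0604). Genes on the other strand overlap Eomes and Gzmk, but Gm33460 at Eomes was at 5.30 or less and Esm1 at Gzmk at 1.71 or less in every library.

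**Figure D3:**
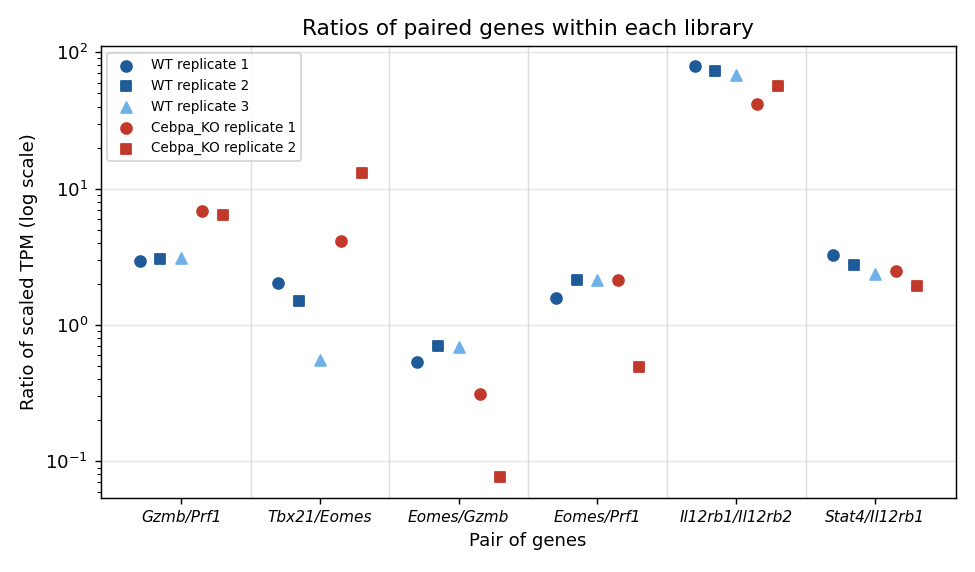
Ratio of scaled TPM of 2 genes within each library (log scale), for 6 pairs, with WT in blue and Cebpa_KO in red. The Gzmb to Prf1 ratio is 2.95 to 3.10 in WT and 6.44 and 6.84 in Cebpa_KO, and the Tbx21 to Eomes ratio is 0.556 to 2.04 in WT and 4.12 and 13.0 in Cebpa_KO.

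Gzma (ENSMUSG00000023132, chromosome 13, 113230359 to 113237515), which encodes the tryptase granzyme A, was low and even. It was at 4.49, 4.19 and 3.09 over the WT libraries, whereas Cebpa_KO libraries had 3.99 and 4.62, and the groups overlapped. The log2 difference was 0.12, with a 95% interval of -0.35 to 0.58 (limma, adjusted p = 0.677). WT replicate 3, the highest library for Gzmb, Gzmk, Prf1 and Nkg7, was the lowest for Gzma.

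On the log2(scaled TPM + 1) scale, WT replicate 3 was at least 2-fold above the mean of the other WT libraries in 5 of the 10 genes (Eomes, Gzmb, Gzmk, Prf1 and Nkg7), where 3.8% of all tested genes were. WT replicates 1 and 2 were at least 2-fold above the mean of the others in 0 of the 10 genes, where 0.554% and 0.597% of all tested genes were. Gzmk in WT replicate 3 was 12.8 times the mean of WT replicates 1 and 2, Eomes 4.08 times, Gzmb 3.65 times, Prf1 3.53 times and Nkg7 2.75 times. For Tbx21 the same ratio was 1.29, and for Stat4 and Gzma it was 0.902 and 0.711. These ratios describe 3 libraries and have no replicate check.

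By mean level in WT, per length, the order was Nkg7 (363 ± 232), Stat4 (138 ± 8.05), Il12rb1 (49.8 ± 5.57), Gzmb (25.7 ± 20.9), Gzmk (17.4 ± 24.1), Eomes (17.0 ± 14.9), Tbx21 (16.1 ± 2.64), Prf1 (8.39 ± 6.65), Gzma (3.92 ± 0.738) and Il12rb2 (0.685 ± 0.123), as scaled TPM with the SD of 3 libraries. By the larger SD of each pair, the neighbours Nkg7 and Stat4, Gzmb and Gzmk, Gzmk and Eomes, Eomes and Tbx21, and Prf1 and Gzma did not differ beyond their spread. Gzmk lay above Eomes, and Eomes above Tbx21, in 1 of 3 WT libraries, while the other neighbours kept their order in all 3. Nkg7, Stat4 and Il12rb1 kept this order among themselves in each of the 5 libraries.

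Cell types other than CD4+ T cells also express these genes, and in bulk RNA a change in the share of such cells and a change in the RNA per cell cannot be told apart. Of 11 markers of NK cells and ILC1, 5 were under 1 in every library, and the list summed to 65.5, 44.0 and 62.4 in the WT libraries, against 50.8 and 21.0 in the Cebpa_KO libraries. Ncr1, the NK cell receptor NKp46, was at 0.773 to 1.92 in the WT libraries, against 0.180 and 0.264 in those of Cebpa_KO. Klrb1c, which encodes NK1.1, was called lower in Cebpa_KO, at 39.1, 35.6 and 30.4 against 10.7 and 10.1 (log2 difference -1.66, limma, adjusted p = 0.0055), although in the assembled loci the log2 difference was 0.08. The other tested markers of the list, which myeloid cells also express, overlapped between the groups. Tyrobp was at 11.3, 2.84 and 13.1 over the WT libraries against 17.1 and 4.19, and Fcer1g at 10.04, 3.52 and 13.5 against 22.0 and 6.13. Cd8a was at 0.200 or less in every library, while Cd8b1 was at 14.7 to 23.5. Of the gamma delta T cell markers, Trdc was at 0.875 to 2.62. The 7 B and plasma cell markers summed to 128, 95.0 and 654 in the WT libraries, against 437 and 115 in the Cebpa_KO libraries, and the 8 myeloid markers to 71.8, 39.6 and 142 in the WT libraries, against 307 and 72.2 in the Cebpa_KO libraries, so both were higher in WT replicate 3 than in the other WT libraries. The 6 mast cell and basophil markers summed to 11.6, 1.36 and 2.17 in the WT libraries, against 13.4 and 13.2 in the Cebpa_KO libraries, and of these Kit, a receptor tyrosine kinase, was at 0.437, 1.19 and 0.722 against 6.54 and 6.32. Kit was called higher, but it would not have passed the filter on its WT libraries alone. The part of these cells in the levels of the 10 genes was not tested.

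Outside the 10 genes, 14 genes of the IL-12, IL-18 and interferon gamma axis were tested, of which 1 rose and 3 fell, with a median log2 difference of -0.09. Over all genes 9.93% rose and 9.82% fell. Il18r1, the IL-18 receptor chain, was at 5.74, 5.55 and 4.53 in the WT libraries, against 9.47 and 9.82 in those of Cebpa_KO (log2 difference 0.77, limma, adjusted p = 0.0252). Both chains of the interferon gamma receptor were lower. Ifngr1, the ligand-binding chain, was at 202, 191 and 184 in WT libraries, with Cebpa_KO libraries at 87.4 and 121 (log2 difference -0.89, limma, adjusted p = 0.0194), and Ifngr2, the signalling chain, was at 12.0, 10.5 and 10.3 over the WT libraries, whereas Cebpa_KO libraries had 6.49 and 5.90 (log2 difference -0.73, limma, adjusted p = 0.0222). Il27ra, the IL-27 receptor chain, fell, with a log2 difference of -0.32 (limma, adjusted p = 0.0403). Ifng, the cytokine itself, was lowest in WT replicates 1 and 2, at 3.02 and 1.95, reached 14.0 in WT replicate 3, and was highest in Cebpa_KO replicates 1 and 2, at 21.4 and 35.1. It did not pass with all 5 libraries (log2 difference 2.34, limma, adjusted p = 0.0765) or against WT replicate 3 alone (0.92, adjusted p = 0.171), and passed without that library (3.05, adjusted p = 0.00816). None of Il18r1, Ifngr1, Ifngr2 and Il27ra passed without WT replicate 2 or without either Cebpa_KO library (limma, adjusted p = 0.0674 or more). Ifngr1 and Il27ra did not pass without WT replicate 1 (limma, adjusted p = 0.0571 and 0.0679). With no filter, Il18r1, Ifngr1 and Il27ra did not pass (limma, adjusted p = 0.0587, 0.0792 and 0.0685). Il18r1 and Il27ra did not pass in the assembled loci or with the replicate block (limma, adjusted p = 0.0635 or more). Against WT replicate 3 alone the log2 differences of Il18r1, Ifngr1, Ifngr2 and Il27ra were 0.94, -0.84, -0.66 and -0.35.

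Of 18 tested genes in a list of other Th1 genes, 3 rose and 1 fell, where 9.93% and 9.82% of all genes did. Their median log2 difference was 0.78, or 1.34 without WT replicate 3 and 0.06 with that library as the only WT library. Of the 3 that rose, Zeb2 passed the filter through the Cebpa_KO libraries alone, so its difference is given without a test. Zeb2, a repressor that acts with T-bet in terminally differentiated effector cells, was near 0 in WT, at 0.0811, 0.0669 and 0.138, and was at 3.09 and 3.84 in Cebpa_KO (log2 difference 2.02). Its log2 difference was 0.73 with a pseudocount of 5, 4.20 with one of 0.1, and 1.00 in the assembled loci. Bhlhe40, a transcription factor that favours Th1 cytokine production, was at 74.8, 77.7 and 176 in the WT libraries, against 476 and 509 in those of Cebpa_KO (log2 difference 2.28, limma, adjusted p = 0.0201). Tnf, an inflammatory cytokine gene, rose, with a log2 difference of 0.60 (limma, adjusted p = 0.0419). Its call was lost with no filter (limma, adjusted p = 0.131), with no trend (0.0569) and in the assembled loci (0.0580). It was also lost without WT replicate 1 (limma, adjusted p = 0.0812) or 2 (0.0661) and without Cebpa_KO replicate 1 (0.175) or 2 (0.200). Against WT replicate 3 alone the log2 difference of Tnf was 0.41. Txk, a Tec family kinase described as favouring Ifng expression, fell from 57.0, 56.8 and 44.0 to 25.5 and 25.9 (log2 difference -0.99, limma, adjusted p = 0.0128). Bhlhe40 and Txk passed without WT replicate 3 (limma, adjusted p = 0.00127 and 0.00537). Against it alone their log2 differences were 1.47 and -0.76. Neither passed with no filter (limma, adjusted p = 0.0934 and 0.0528) or without WT replicate 2 (0.0672 and 0.0533). Without WT replicate 1, Bhlhe40 did not pass (limma, adjusted p = 0.0549) and Txk did (0.0406). Runx3, the partner of T-bet at Ifng, overlapped between the groups, at 33.2, 34.1 and 51.0 in WT libraries, with Cebpa_KO libraries at 31.0 and 39.6. Cxcr3, a chemokine receptor and T-bet target, was at 326 to 369 in WT libraries, with Cebpa_KO libraries at 382 and 412, with a log2 difference of 0.17 (limma, adjusted p = 0.225).

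Several effector genes, named after their values were seen, had the pattern of Gzmb. The chemokine genes Ccl3 and Ccl4 were at 0.801 and 3.20 in WT replicate 1, at 0.796 and 1.81 in WT replicate 2, at 12.5 and 36.1 in WT replicate 3, whereas Cebpa_KO replicate 1 had 12.7 and 34.0 and replicate 2 had 23.0 and 57.4. The chemokine gene Ccl5 was at 27.4, 19.8 and 240 over the WT libraries, whereas Cebpa_KO libraries had 85.2 and 118, and Xcl1 at 3.10, 2.91 and 24.6 in the WT libraries, against 15.4 and 17.1 in those of Cebpa_KO. Ccl5 and Xcl1 were thus highest in WT replicate 3, as were Gzmk, Prf1 and Nkg7. None of these chemokine genes passed with all 5 libraries, at limma adjusted p of 0.141, 0.163, 0.554 and 0.353 for Ccl3, Ccl4, Ccl5 and Xcl1. Without WT replicate 3, Ccl4, Ccl5 and Xcl1 passed (log2 differences 3.72, 2.06 and 2.105, limma, adjusted p 0.00697, 0.00956 and 0.00506), while Ccl3, with a log2 difference of 3.33, then reached the filter through the Cebpa_KO libraries alone. Against WT replicate 3 alone the log2 differences of Ccl3, Ccl4, Ccl5 and Xcl1 were 0.41, 0.28, -1.26 and -0.58, with no adjusted p under 0.05. Without WT replicate 3, 10 of the 18 genes of the Th1 list were called higher, Zeb2 and Ccl3 included, and 1 lower, where 13.7% and 11.5% of all genes were. Against that library alone 2 rose, Zeb2 included, and 1 fell, where 6.53% and 4.16% of all genes did. Zeb2 reached the filter of that fit too through the Cebpa_KO libraries alone, so its rise is not read as a test.

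**Figure D4:**
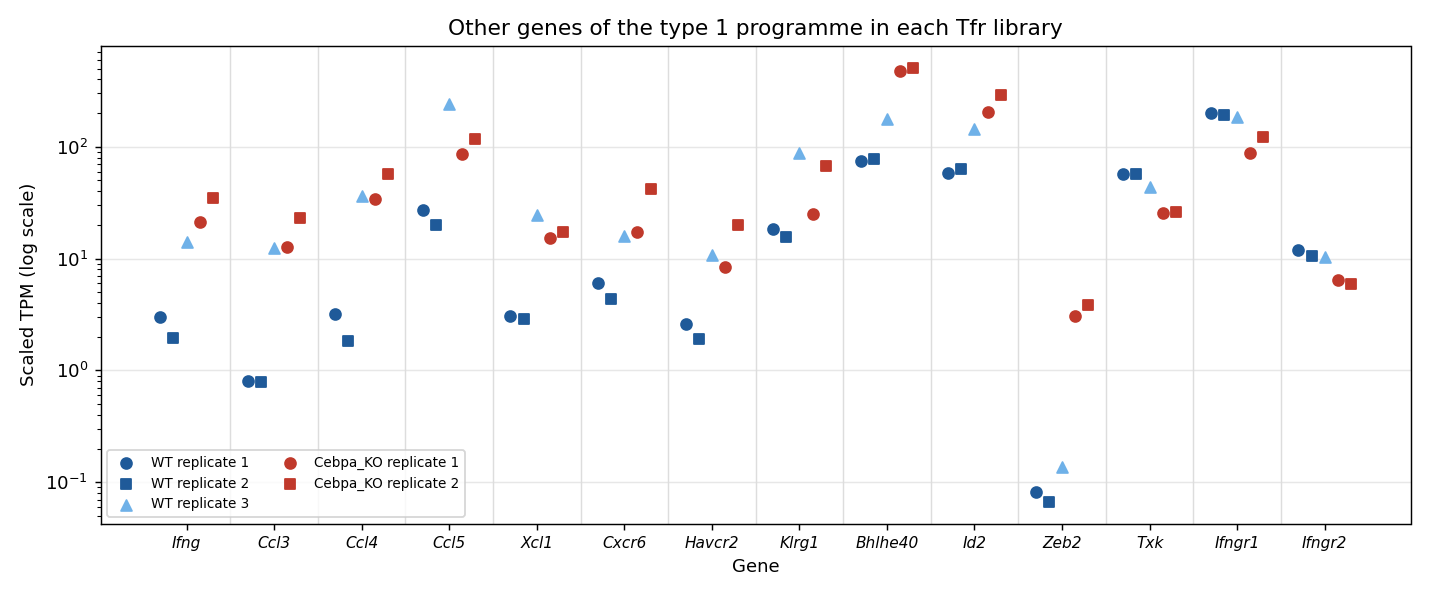
Scaled TPM (log scale) of 14 other genes of the type 1 programme, 1 point per library, with WT in blue (WT replicate 3 as light triangles) and Cebpa_KO in red. For Zeb2 and Bhlhe40 the red points lie above all blue points and for Txk, Ifngr1 and Ifngr2 below them, while for Ccl5, Xcl1 and Klrg1 the light triangle is highest.

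Of 16 tested genes for granule assembly, release and protection, 0 rose and 2 fell (limma), where 9.93% and 9.82% of all genes did. Their median log2 difference was -0.09, and 2 were higher and 5 lower at an unadjusted p under 0.05 (limma). Lamp1, a lysosomal membrane protein that reaches the surface when granules are released, fell from 378, 330 and 363 to 221 and 184 (log2 difference -0.82, limma, adjusted p = 0.0128). Lyst, a regulator of lysosome-related granules, was at 4.45, 4.95 and 6.63 in WT libraries, with Cebpa_KO libraries at 2.32 and 1.95 (log2 difference -1.01, limma, adjusted p = 0.0262). Against WT replicate 3 alone neither passed, at 0.0574 and 0.0507, and Lyst had an adjusted p = 0.131 in the assembled loci. Of the 7 other granzyme genes, 3 were listed at 0 in every library and 5 were under 1 in every library, these 3 included. Gzmc, which lies in the Gzmb cluster, was at 8.77, 6.69 and 3.12 over the WT libraries, whereas Cebpa_KO libraries had 1.31 and 2.35, opposite to Gzmb, but did not pass (log2 difference -1.28, limma, adjusted p = 0.0816). It passed without WT replicate 3 (-1.65, limma, adjusted p = 0.0169), with array weights (0.0246) and with the replicate block (0.0430). Among the WT libraries Gzmc was lowest in WT replicate 3, so omitting that library alone enlarges the fall. The block leaves the same library without weight, so the calls from the omission and the block are no independent support. Against WT replicate 3 alone the log2 difference of Gzmc was -0.57. Of 6 tested killer cell receptor genes 0 were called (limma; 0 higher and 2 lower at an unadjusted p under 0.05). Klrg1, an inhibitory receptor of terminal effector cells, was at 18.4, 15.5 and 87.3 in the WT libraries, against 24.8 and 66.9 in those of Cebpa_KO, and its groups overlapped. Slamf7, an activating receptor of NK and T cells, was at 22.1, 16.5 and 61.8 in WT libraries, with Cebpa_KO libraries at 10.6 and 7.63 (log2 difference -1.55, limma, adjusted p = 0.107). Slamf7 was called lower without WT replicate 3 (-1.01, limma, adjusted p = 0.0351) and with the replicate block (limma, adjusted p = 0.0285). Against WT replicate 3 alone, its highest library, the log2 difference was -2.65.

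The tested genes with the pattern most like that of Tbx21, by Euclidean distance of centred log2(scaled TPM + 1) values over 5 libraries among 11226 named genes, were Gls2, Pus7 and Camk2b, at distances of 0.15, 0.16 and 0.21. Pus7 was at 9.97, 10.2 and 13.5 over the WT libraries, whereas Cebpa_KO libraries had 29.8 and 34.0. Gls2 was at 0.318, 0.187 and 0.736 in WT, against 2.36 and 3.46 in Cebpa_KO. Camk2b was at 0.785, 0.703 and 1.09 against 2.92 and 4.25. Gls2 and Camk2b would not have passed the filter on their WT libraries alone. The log2(scaled TPM + 1) scale understates changes at such levels. Those most like Gzmb were Mir207, Scin and Snora78, at 0.23, 0.35 and 0.41. Scin, which encodes an actin-severing protein, was at 12.9, 11.7 and 36.6 in the WT libraries, against 31.2 and 38.0 in those of Cebpa_KO.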

How the data were processed

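RNA-seq libraries of sorted Tfr cells were made with a low-input full-length cDNA kit and tagmented, per the labels' protocols. Alignment was to mm39, with STAR 2.7.11b and StringTie 2.1.3b as the tools, per the submitters' processing notes, and no source used here gives the annotation, the read length or the strandedness. Per the file headers, each table holds coverage, FPKM and TPM. The TPM deposited by the authors is treated as a score, since assembled loci sum to 1000000 and annotated gene rows repeat 96.7% to 97.6% of that, and only the annotated rows were analysed. Depth was the ratio of coverage to FPKM, 2 columns of signal in the deposited tables. No read counts were used, so no counting intervals or floors are given.

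TPM was summed per gene ID and divided by median-ratio factors of 0.984 to 1.04. Genes that reached a TPM of 1 in 2 or more libraries were tested with limma 3.58.1 (R 4.3.3, intensity trend, no block) on log2(scaled TPM + 1), which understates changes of low genes. The fit was tested on simulated data. The 10 genes and the 13 other lists were chosen with earlier results of these data known. Named from each other list were up to 4 genes past the threshold with the smallest p, or up to the 2 most abundant where none passed, and genes beyond these (Runx3, Cxcr3, Ncr1, Tyrobp, Fcer1g, Cd3e, Cd4, Pdcd1 and the chemokine genes among them) were chosen after their values were seen. Of 138 listed names, counted once per list, 3 were not matched. Gene types came from GENCODE M21, whose transcripts also gave the 50-base windows. Alternatives were pseudocounts of 0.1 and 5, no filter, a TPM of 5, unscaled TPM, quantile normalization, no trend, array weights, each library left out, WT replicate 3 as the only WT library, a replicate block, and assembled loci assigned to the gene of greatest overlap on the same strand (bedtools 2.31.1).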

Additional observations from a re-analysis of the deposited data

How the results depend on the processing

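With all 5 libraries 1 of the 10 genes was higher in Cebpa_KO and 0 were lower, and the count of 0 lower held under each of the 16 alternatives. The count of higher genes among the 10 ranged from 0 to 4 when 1 library was left out, and was 3 with the replicate block. Over all genes, 1614 were higher and 1596 lower. Leaving out 1 library gave 5 to 2177 higher and 18 to 1825 lower, with the lowest counts without either Cebpa_KO library. No filter gave 930 and 629, array weights 2575 and 2440, and WT replicate 3 as the only WT library 1014 and 647. The cause of these shifts was not tested.

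The replicate block gave 1359 higher and 1050 lower genes. It leaves WT replicate 3 without weight in the comparison, since no Cebpa_KO library carries its number. The replicate numbers are not said to mark a shared animal, batch or day. Deviations from the group means correlated at -0.18 for replicates 1 and 0.27 for replicates 2, across genes. WT replicate 3 and Cebpa_KO replicate 1, of unlike number, correlated at 0.32. The deviations of 2 Cebpa_KO libraries mirror each other, so these correlations are not independent and do not decide on a pairing. Under the block Gzmb and Nkg7 passed beside Tbx21, at log2 differences of 1.48 and 0.87 (limma, adjusted p = 0.0362 and 0.0349).

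For the 10 genes singly, 149 of their values under the alternatives stayed on the same side of the threshold, 5 came past it (all without WT replicate 3 or with the block) and 2 fell short of it (Tbx21 without either Cebpa_KO library). For the other named genes 479 stayed, 35 came past and 82 fell short, and the call of Klrb1c ended with the sign turned in the assembled loci, where its log2 fold change was 0.078. The sign of the log2 difference, called or not, changed in 14 values of 7 of the 10 genes and in 13 values of 7 other named genes, 4 and 5 of them where WT replicate 3 stood alone for WT. Depth was alike in all libraries, and the number of libraries limits the precision.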

Other observations

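Among 45 pairs of the 10 genes, the ratio of Gzmb to Prf1 varied least between the WT libraries, although WT replicate 3 had 3.65 times the Gzmb and 3.53 times the Prf1 of the mean of the other WT libraries. The ratio of scaled TPM was 2.95, 3.06 and 3.10 in the WT libraries, against 6.84 and 6.44 in those of Cebpa_KO. Both Cebpa_KO libraries thus held about 2.19 times as much granzyme B RNA per perforin RNA as the WT mean, and the groups did not overlap. The pair was chosen after its values were seen, and 17 of the 45 ratios did not overlap between the groups, so no test is given.

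Eomes had a further pattern. The ratio of Eomes to Gzmb was 0.534, 0.700 and 0.685 in the WT libraries, against 0.310 and 0.0767 in those of Cebpa_KO. The ratio of Eomes to Prf1 was 1.57, 2.14 and 2.13 in WT, 2.12 in Cebpa_KO replicate 1 and 0.494 in Cebpa_KO replicate 2, so here the last library stood below the rest. In WT replicate 3 Eomes, Gzmb and Prf1 were raised in near proportion, whereas the Cebpa_KO libraries held Gzmb at 31.9 and 49.5 with Eomes at 9.88 and 3.80.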
